A study of Mus musculus with 24 samples.

Results

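Immediate early genes were followed in LSK-SLAM cells of young and old mice. The set consists of 10 genes chosen by symbol, *Fos*, *Fosb*, *Jun*, *Junb*, *Jund*, *Egr1*, *Ier2*, *Nr4a1*, *Dusp1* and *Zfp36*. The rule is that list of symbols and uses no measured value, but the list was chosen with earlier results of these data known. Of these, 9 were found among the 18762 genes of the table of normalized read counts, and *Nr4a1* was not analysed here. In these data the 9 genes did not separate young from old mice. Single mice differed by 2.66-fold for *Junb* to 7.13-fold for *Fosb*. Among genes with a read in every mouse the median was 2.54-fold for a mean of at least 90, and 3.35-fold for all tested. In 4 of the 12 mice all 9 genes lay on one side of the mean of their age and label letter.

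Immediate early genes are transcribed within minutes of a signal, without the need for newly made protein. Growth factors, cytokines and stress act through MAP kinases on factors that already sit at the promoters, such as SRF with its partners and CREB. FOS and JUN proteins pair with each other to form the transcription factor AP-1, EGR1 binds GC-rich sites, and DUSP1 and ZFP36 act against the response, the first by removing phosphate from MAP kinases and the second by sending AU-rich mRNAs to decay. In blood stem cells *Egr1* is known for holding cells quiescent and in their niche, and *Junb* for limiting proliferation.

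LSK-SLAM cells are bone marrow cells that lack lineage markers and CD48 and carry Sca-1, c-Kit and CD150, a fraction enriched for HSCs. They came from 5 young Wt mice of the C57BL/6 strain, 4 to 5 months old, and 7 old Wt mice of the same strain, 20 to 22 months old by the sample labels, while figure legends of the study give somewhat different ages. From 15000 cells per mouse, 300 pg of RNA freed of ribosomal RNA went into a library kit for small inputs. The 24 labelled library entries, 2 for each mouse, correspond to 1 deposited column per mouse. No mouse carried a transgene or received a treatment that the labels name.

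A normalized read count is the number of reads of a gene over the effective library size, scaled to 1 M reads, where M stands for 1000000. Whole reads could be recovered from 100% of them, at a tolerance of 0.001 of a read. Recovered reads on genes ranged between 2.05 and 5.12 M for the young and between 0.861 and 5.00 M for the old mice. The last letter of each mouse's label is A or B, and the labels do not give its meaning. Of the young mice 2 had letter A and 3 letter B, and of the old mice 4 had letter A and 3 letter B. The deepest letter A mouse, with 3.11 M reads, was shallower than the shallowest letter B mouse, with 3.23 M. Any 2 mice of one age differed by more than sampling noise, with a chi-square per gene between 6.50 and 85.7 over 31 pairs. All 10 stem cell markers examined were detected, with medians over mice from 88.19 for *Tek* to 1546 for *Kit* normalized read counts. *Cd48*, selected against in the sort, had a median of 6.39. Other progenitor markers were higher, with medians of 93.28 for *Cd34*, 60.98 for *Mpo*, 42.88 for *Flt3* and 22.76 for *Elane*. The median of *Cd34* thus lay above that of *Tek*, and these medians do not separate stem cell from progenitor markers as lists.

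Reads on single immediate early genes numbered from 52 (*Ier2* in an old mouse) to 4155 (*Jun* in a young mouse), which gives a relative counting error between 13.9% and 1.55%. Differences of several-fold between mice are thus far larger than the counting error, which is the only error that these figures cover. Because whole sorted samples were measured, fewer cells that express a gene and less RNA per cell cannot be told apart.

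All 9 genes were well expressed in LSK-SLAM cells. Per kilobase of exon, *Jund* had the highest median over the 12 mice with 205 normalized read counts per kilobase, followed by *Jun* with 152, *Junb* with 78.4, *Ier2* with 71.6, *Egr1* with 67.0, *Dusp1* with 66.0, *Zfp36* with 61.3, *Fos* with 47.9 and *Fosb* with 23.6. Each of these medians lay above that of 86% of the 12354 genes tested, whose own median was 7.92 per kilobase. The ranges over mice of every neighbouring pair in this order overlapped. All 9 genes were measured in the same 12 mice, and the overlap of ranges does not use this pairing. It therefore does not decide whether neighbours in the order differ within mice.

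To show what the promoters share, the window from 250 bases before to 50 bases after the start was searched on both strands in the RefSeq promoters of 7 of the 9 genes (build GRCm38.p6). *Egr1* and *Ier2* were not among them. Positions refer to the RefSeq start, which can differ from the gene start in GENCODE. The window of *Jund*, from 70697489 to 70697788, lay wholly before the GENCODE gene start at 70698949. Those of *Zfp36* and *Dusp1* lay wholly inside the GENCODE genes. The CRE core TGACG, part of the binding site of CREB, occurred in 4 of 7 windows, those of *Fos*, *Fosb*, *Junb* and *Dusp1*, and in 20.8% of all 32817 promoter windows. The complete CRE, TGACGTCA, which contains that core on both strands, was found in *Dusp1* from -143 to -136 and in 1.79% of all windows. A CArG box, the site of SRF, was found in *Zfp36* from -58 to -49 and in 1.63% of all windows. The EGR site GCGNGGGCG was present in *Fosb* and *Zfp36* and in 5.56% of all windows. The letters of the TATA box, TATAAA, were found in *Fos* from -33 to -28 and in *Junb* from +1 to +6, and in 13.6% of all windows. The match in *Junb* thus does not lie before the start used, and it is not part of the sequence printed below. The AP-1 site TGANTCA had no match in the 7 windows and one or more in 7.81% of all. A match of letters is not a measured binding site. The 4 promoters with this core are given from -150 towards the start, as far as no annotated exon of the gene begins, with the matches in capitals. They lie at chr12:85473740-85473889 on the plus strand for *Fos*, and on the minus strand at chr7:19310052-19310195 for *Fosb*, chr8:84978749-84978898 for *Junb* and chr17:26508520-26508622 for *Dusp1*.
Fos: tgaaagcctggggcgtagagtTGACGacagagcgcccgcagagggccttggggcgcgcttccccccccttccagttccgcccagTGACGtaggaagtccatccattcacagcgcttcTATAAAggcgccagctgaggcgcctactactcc
Fosb: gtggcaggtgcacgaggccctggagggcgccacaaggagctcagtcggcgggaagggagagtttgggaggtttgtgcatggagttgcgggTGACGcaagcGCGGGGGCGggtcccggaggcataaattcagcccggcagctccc
Junb: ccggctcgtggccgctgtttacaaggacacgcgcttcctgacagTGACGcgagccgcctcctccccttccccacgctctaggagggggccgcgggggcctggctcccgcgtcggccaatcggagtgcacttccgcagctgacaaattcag
Dusp1: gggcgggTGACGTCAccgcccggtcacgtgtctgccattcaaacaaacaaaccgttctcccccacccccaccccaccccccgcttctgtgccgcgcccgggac

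The 3′ ends of the transcripts were searched as well. The pentamer ATTTA, the core of AU-rich elements that ZFP36 binds, occurred in the 3′ UTR of 8 of 9 genes, all but *Ier2*, and in 69.6% of 12151 3′ UTRs of tested genes (GENCODE vM21 transcripts, sense strand). At least 2 copies were present in 6 of 9 and in 50.7% of all. Its density had a median of 3.2 per kilobase in the 9 genes and 1.3 per kilobase over all. The nonamer TTATTTATT was found in 3 of 9, *Fos*, *Dusp1* and *Zfp36* itself, and in 8.19% of all. For these 3, a window of 30 bases with the nonamer is given, with each ATTTA in capitals.
Fos: gtgttttcaATTTATTTAttaagatggatt
Dusp1: agctggtccttATTTATTTAacacccccct
Zfp36: ctttATTTAtgacgactttATTTAttgtat

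Old and young mice were first compared gene by gene, as the study asked how HSCs change with age. The test was limma on log2(normalized read count + 1) with Benjamini-Hochberg adjustment over the 12354 genes whose mean over all mice reached 10 normalized read counts. Of these, 13 genes (0.105%) had an adjusted p under 0.05, and 0 of the 9 immediate early genes were among them. At an unadjusted p under 0.05 the number was again 0 of 9, where 3.95% of all genes passed. The quasi-likelihood test of edgeR (0.146% of genes called), DESeq2 (0.469%) and limma with the label letter as a covariate (0.299%) also called 0 of 9. The values of young and old mice overlapped for all 9 genes, as they did for all but 0.461% of the genes tested. The limma log2 fold changes, old against young, had a median of 0.06 for the 9 genes and -0.02 for all genes, and 5 of the 9 were above 0, as were 47.7% of all genes.

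**Figure D1:**
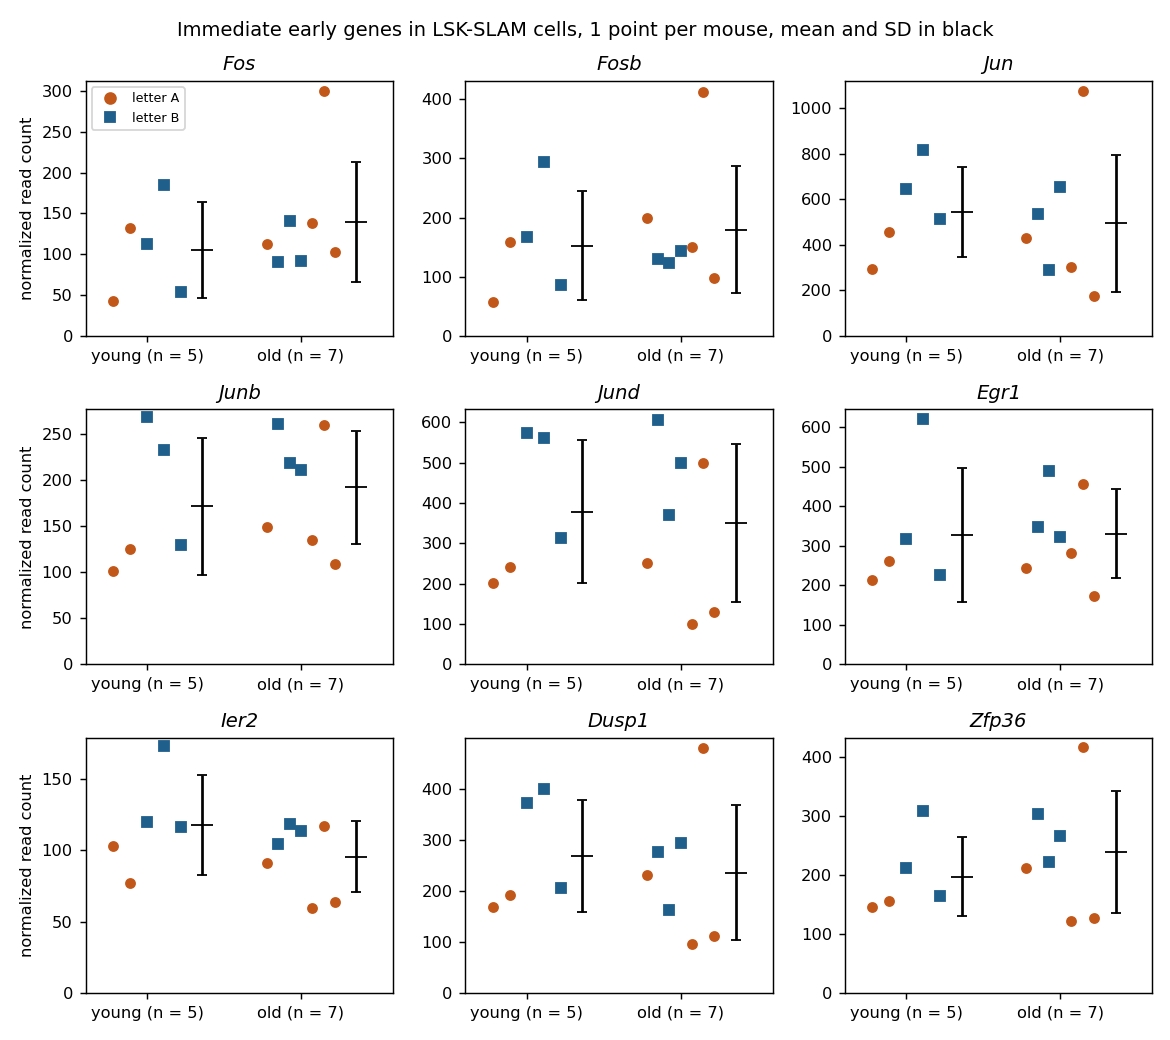
Normalized read count of each of 9 immediate early genes (y axis, from 0) in young (n = 5) and old mice (n = 7), 1 point per mouse, circles for label letter A and squares for letter B, with mean and SD in black. Young and old values overlap in every panel, and the highest *Fos*, *Fosb*, *Jun*, *Dusp1* and *Zfp36* counts belong to 1 old mouse of letter A.

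*Fos* (ENSMUSG00000021250, chromosome 12 from 85473890 to 85477273 on the plus strand, GRCm38), the founding AP-1 gene, had the largest change of the 9 with age. Its normalized read counts were 43.2, 133, 113, 185 and 53.5 in young mice 1 to 5, and in old mice ran from 90.6 to 299 with a median of 113. The medians of both ages were alike, and the higher mean of the old, 139 ± 73.3 (SD, n = 7) against 105 ± 58.5 (SD, n = 5), came with a single old mouse, number 6, above all others. In limma the log2 fold change was 0.48 (standard error 0.35) and the adjusted p 0.9997, and the two-sided exact permutation test over 792 splits gave p = 0.278, where the smallest possible is 0.00126. Without old mouse 6 the log2 fold change was 0.28, and over the mice left out in turn it ran from 0.21, without young mouse 1, to 0.73, without young mouse 4.

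*Fosb* (ENSMUSG00000003545, chromosome 7 from 19302696 to 19310051, minus strand) encodes a close relative of FOS that outlasts it after stimulation. The young mice had 57.9, 158, 167, 295 and 85.8 normalized read counts, and the old mice from 97.2 to 413 with a median of 144. Young mouse 1 was lowest and old mouse 6 highest of all 12, as was the case for *Fos*. The mean was 153 ± 92.0 (SD, n = 5) for the young and 180 ± 107 (SD, n = 7) for the old, and the log2 fold change 0.29 (standard error 0.37). It was 0.07 without old mouse 6 and 0.58 without young mouse 4, and over the mice left out in turn it ran from 0.0013, without young mouse 1, to that 0.58.

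The JUN partners of AP-1 showed mean differences in both directions, none past the test. *Jun* (ENSMUSG00000052684, chromosome 4 from 95049034 to 95052222, minus strand), whose protein is phosphorylated by stress-activated kinases, had 296, 455, 646, 815 and 515 normalized read counts in young mice and 176 to 1076, with a median of 431, in old mice. Old mice thus held both the lowest and the highest *Jun* count. The log2 fold change was -0.28 (standard error 0.38). *Junb* (ENSMUSG00000052837, chromosome 8 from 84974484 to 84978718, minus strand) had 101, 126, 268, 234 and 130 normalized read counts in young mice and 109 to 261, with a median of 212, in old mice. The range of the old lay inside that of the young, and the log2 fold change was 0.20 (standard error 0.28). *Jund* (ENSMUSG00000071076, chromosome 8 from 70698949 to 70700616, plus strand), the JUN gene that is known to be expressed steadily in resting cells, had 203, 242, 573, 562 and 313 normalized read counts in young mice and 100.2 to 607, with a median of 370, in old mice. In both ages the lowest *Jund* counts belonged to mice of letter A. The log2 fold change was -0.24 (standard error 0.43).

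*Egr1* (ENSMUSG00000038418, chromosome 18 from 34859823 to 34864984, plus strand) encodes the zinc finger factor tied to HSC quiescence. It had 212, 263, 318, 622 and 226 normalized read counts in young mice and 172 to 489, with a median of 321, in old mice. Young mouse 4 stood above all other mice. Means of 328 ± 169 (SD, n = 5) and 330.5 ± 113 (SD, n = 7) were nearly equal, and the 95% interval of the limma log2 fold change of 0.06 reached from -0.56 to 0.67. *Ier2* (ENSMUSG00000053560, chromosome 8 from 84661331 to 84662852, minus strand), a small nuclear protein gene, had 103, 76.9, 120, 173 and 116 normalized read counts in young mice and 59.2 to 118, with a median of 105, in old mice. All old mice lay below young mouse 4 and young mouse 3. The log2 fold change was -0.30 (standard error 0.23), with the smallest exact permutation p of the 9 genes, 0.249.

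The 2 genes that act against the response did not differ between the ages beyond their spread either. *Dusp1* (ENSMUSG00000024190, chromosome 17 from 26505590 to 26562128, minus strand) had 168, 192, 373, 400 and 206 normalized read counts in young mice and 95.5 to 480, with a median of 231, in old mice, and the log2 fold change was -0.28 (standard error 0.35). *Zfp36* (ENSMUSG00000044786, chromosome 7 from 28376784 to 28380253, minus strand) had 146, 156, 213, 309 and 164 normalized read counts in young mice and 122 to 418, with a median of 223, in old mice, and the log2 fold change was 0.21 (standard error 0.29). For both, old mouse 6 was the highest and old mouse 5 the lowest of all mice. A strand setting of the counting is not given in the sources used here, so reads of *Jun*, *Junb*, *Jund*, *Dusp1* and *Zfp36* cannot be told apart from those of genes that overlap them on the opposite strand (*Junos*, *Prdx2*, *Gm11175*, *Ergic1* with *Gm8225*, and *Gm44710*). *Fos*, *Fosb*, *Egr1* and *Ier2* have no overlapping gene in GENCODE vM21.

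The intervals show what size of age effect these 12 mice leave undecided. The 95% intervals of the fold between old and young reached from 0.840 to 2.31 for *Fos*, from 0.477 to 1.43 for *Jun*, from 0.581 to 1.13 for *Ier2* and from 0.455 to 1.57 for *Jund*. A change of 2-fold in either direction lay outside the interval of *Junb*, *Egr1*, *Ier2* and *Zfp36*. For *Fos*, *Fosb*, *Jun*, *Jund* and *Dusp1* such a change lay inside the interval on one side. The lack of a call does not show that the ages are alike for these 5 genes. When the letter was put into the model these intervals were narrower. They ran from 0.898 to 2.11 for *Fos*, from 0.785 to 1.92 for *Fosb* and from 0.564 to 1.35 for *Jun*. Those of *Jund* and *Dusp1* ran from 0.655 to 1.45 and from 0.582 to 1.32. Of the 9 genes only *Fos* then had a 2-fold change inside its interval. All these intervals rest on a variance that limma draws toward that of genes of like abundance. With age and letter in the model, the residual SD of *Fosb* was 0.81 on the log2 scale and that of the trend 0.32. For genes that varied more than the trend, such as *Fos*, *Fosb*, *Jun*, *Jund* and *Dusp1*, the intervals can be too narrow. They do not exclude a 2-fold change there.

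The age differences of *Fos* and *Fosb* were also taken within each letter, and the test of the difference between letters passed for neither gene after adjustment. In mice with letter A the limma log2 fold change with age was 0.96 for *Fos* and 0.95 for *Fosb*. In mice with letter B it was 0.02 and -0.28. The difference between the letters, B minus A, was -0.93 for *Fos* (standard error 0.59, unadjusted p = 0.122) and -1.24 for *Fosb* (standard error 0.60, unadjusted p = 0.0483, limma adjusted p = 0.9998). Over all genes 2 (0.0162%) had an adjusted p under 0.05 for this interaction, none of them among the 9. At an unadjusted p under 0.05 there were 3.43% of all genes and 1 of the 9, *Fosb*, in limma, and edgeR also called 0 of the 9. Only 2 young mice carry letter A, and young mouse 1, one of them, had the lowest *Fos* and *Fosb* counts of all mice. Without young mouse 1 the interaction was -0.14 for *Fos* and -0.52 for *Fosb*, and without young mouse 2, the other of them, it was -1.73 and -1.95. These are the ends of the range over the 12 mice left out in turn.

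The label letter went with larger differences than age. With age in the model, 4462 genes (36.1%) had a limma adjusted p under 0.05 between the letters, 10.5% higher and 25.6% lower in letter B. Of the 9 immediate early genes, 3 were called, *Jund*, *Junb* and *Ier2*, all higher in letter B. As a share of the 9 this is near the share of all genes called in either direction. The log2 fold changes between letters had a median of 0.53 in the 9 genes and -0.09 in all genes, and 8 of the 9 were above 0, as were 45.5% of all. No member had letters without overlap, whereas 10.5% of all genes did. Abundance bore on this comparison, because among the 4799 genes that averaged 50 or more normalized read counts, to which all 9 belong, the median log2 fold change was 0.30 and 943 genes (19.6%) were called, 830 of them higher in letter B. On that scale 8 of the 9 genes were on the positive side with this median and *Fos* was not.

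**Figure D2:**
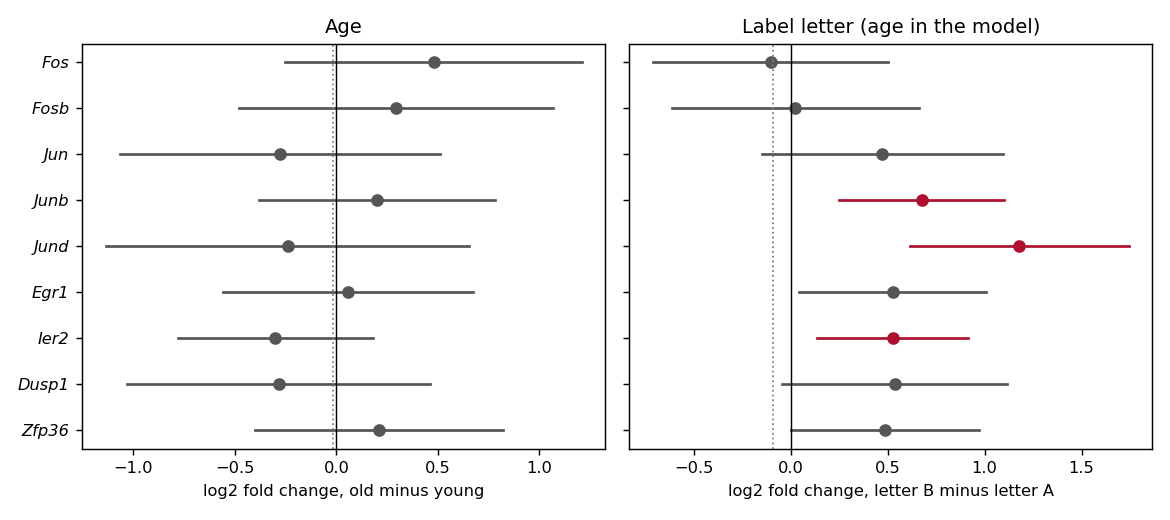
Limma log2 fold change (x axis) of each immediate early gene (y axis) between old and young mice on the left and between letter B and letter A on the right, with 95% intervals as lines. Red marks an adjusted p under 0.05, the dotted line is the median of all genes tested, and *Jund* at 1.18, *Junb* at 0.67 and *Ier2* at 0.53 are the red genes.

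*Jund* differed most between the letters. In letter A its normalized read counts ran from 100.2 to 500.0 with a median of 222, and in letter B from 313 to 607 with a median of 530. The letters overlapped only through old mouse 6, a letter A mouse with 500.0, since the other letter A mice had at most 253. The mean was 238 ± 142 (SD, n = 6) in letter A and 487 ± 119 (SD, n = 6) in letter B. The log2 fold change was 1.18 with an error of 0.28 (SE) and an adjusted p of 0.00266 in limma. In all 22 alternatives it was called, with adjusted p between 0.00016 and 0.0270.

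*Junb* had 101 to 260 normalized read counts with a median of 130.5 in letter A and 130 to 268 with a median of 226 in letter B. Here too old mouse 6 was the highest mouse of letter A. Its log2 fold change between letters was 0.67 (SE 0.21), and the adjusted p from limma 0.0144. The call of *Junb* was lost in 2 of 22 alternatives, without trend (adjusted p = 0.0540) and in old mice alone (0.146). *Ier2* had 59.2 to 117 with a median of 83.9 in letter A and 105 to 173 with a median of 117 in letter B, which gave a log2 fold change of 0.53 (SE 0.19) with an adjusted p of 0.0327 from limma. The call of *Ier2* was lost in 10 of 22 alternatives, among them reads thinned to equal depth (adjusted p = 0.0581), old mice alone (0.196), and the fits without young mouse 2, young mouse 4, or old mouse 3, 4, 5 or 7.

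The other members were not called between letters. The log2 fold changes were 0.54 for *Dusp1*, 0.53 for *Egr1*, 0.49 for *Zfp36* and 0.47 for *Jun*, against 0.02 for *Fosb* and -0.10 for *Fos*. The signs of *Fos* and *Fosb* depended on the alternative. Without old mouse 6 the number of members called was 7 of 9, all but *Fos* and *Fosb* (36.5% of all genes). Rescaling by median ratios moved the median log2 fold change of all genes from -0.09 to 0.03 and that of the 9 to 0.65. It called 5 of 9 (41.7% of all genes), and the share of calls that were higher in letter B was 44.0% after and 29.2% before rescaling. All members called under either scaling were higher in letter B. With reads thinned to 861047 in each mouse the number was 2 of 9, *Jund* and *Junb* (30.7% of all genes). Letter and depth cannot be told apart in the deposited values, since every letter A mouse was shallower.

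Marker genes of other cells moved with the letter as well. The summed level of 6 B cell markers was 106 to 174 normalized read counts in letter A and 63.4 to 114 in letter B, and that of 6 T cell markers 55.7 to 159 and 16.7 to 68.5. The sum of 8 myeloid markers was 239 to 3254 in letter A and 206 to 850 in letter B, and that of 5 progenitor markers 232 to 1046 and 103 to 432. The sum of 10 stem cell markers was 1596 to 4256 in letter A and 4008 to 5582 in letter B. No marker of these lists was at 0 in all mice. Their part in the difference between letters was not tested.

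Beyond age and letter, most immediate early genes varied more from mouse to mouse than genes of like abundance. After age and letter were removed, the residual SD on the log2 scale was compared with the SD that the limma trend gives at the same mean. The ratio was 2.56 for *Fosb*, 2.35 for *Fos*, 2.20 for *Dusp1*, 2.04 for *Jun*, 1.98 for *Jund*, 1.67 for *Zfp36*, 1.53 for *Egr1*, 1.32 for *Junb* and 0.981 for *Ier2*. The median over the 9 genes was 1.98 and that over all genes 0.976. *Ier2* did not share the wide spread. With reads thinned to equal depth the median ratio of the 9 genes was 2.06. These ratios are descriptions without a test.

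Summed over the 9 genes, the level was 1330 to 3593 normalized read counts in young mice (2265 ± 913, SD, n = 5) and 1088 to 4020 in old mice (2258 ± 969, SD, n = 7). Young mouse 4 and old mouse 6 held the highest sums of their ages, and young mouse 1 and old mouse 7 the lowest. Old mouse 6 had the highest count of all mice in 5 of the 9 genes, and young mouse 4 was among the top 2 mice in 7 of 9. At the other end, old mouse 7 was among the lowest 3 mice in 8 of 9 genes and young mouse 1 in 7 of 9, while old mouse 5 was the lowest in 4.

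**Figure D3:**
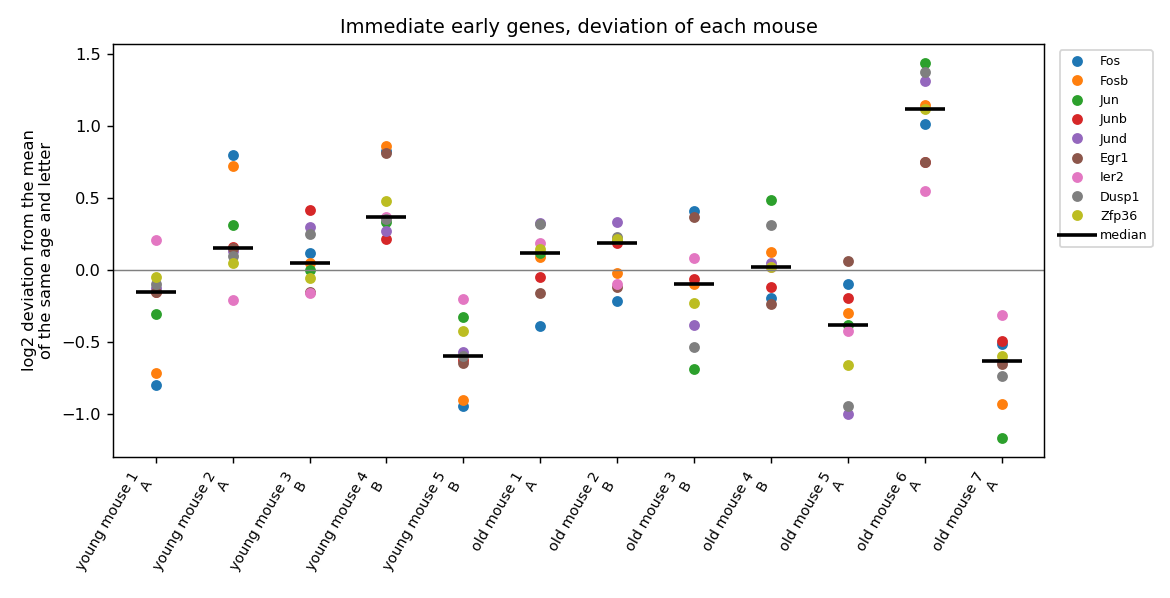
Log2 deviation of each immediate early gene (coloured points, y axis) from the mean of the mice with the same age and letter, for each of 12 mice (x axis, letter below the name), with the median as a black bar. All 9 genes lie above 0 in old mouse 6 and young mouse 4 and below 0 in old mouse 7 and young mouse 5.

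The 9 genes moved as a block in several mice. Measured from the mean of mice of the same age and letter, all 9 were higher in old mouse 6, by 0.55 to 1.44 on the log2 scale, and in young mouse 4, by 0.21 to 0.86. In old mouse 7 all 9 were lower, with deviations from -1.17 to -0.31, and so they were in young mouse 5, from -0.94 to -0.21. The median deviation of all genes tested was 0.03 in old mouse 6, -0.03 in young mouse 4, 0.02 in old mouse 7 and 0.06 in young mouse 5. In old mouse 5 the genes parted company, with *Jund* at -0.999 and *Dusp1* at -0.95 while *Egr1* was at 0.06 and *Fos* at -0.10. Old mouse 3 showed another split, with *Fos* at 0.41 and *Egr1* at 0.36 and *Jun* at -0.69. The rule that names these genes describes them as also sensitive to cell handling, and the cells were isolated and sorted before RNA was taken. The part of handling in these deviations was not tested.

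Across the 12 mice, after centring on the 4 means of age and letter, the 36 pairs of immediate early genes had a median Pearson's r of 0.779, from 0.430 for *Fos* with *Ier2* to 0.986 for *Jund* with *Dusp1*. All 36 were above 0, and the median over all pairs of tested genes was 0.01, with a 95th percentile of 0.70. By Spearman's rho the median of the 36 pairs was 0.738. These are descriptions without a test, and the points share the library of each mouse and its depth, and the 2 young mice of letter A mirror each other by construction.

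**Figure D4:**
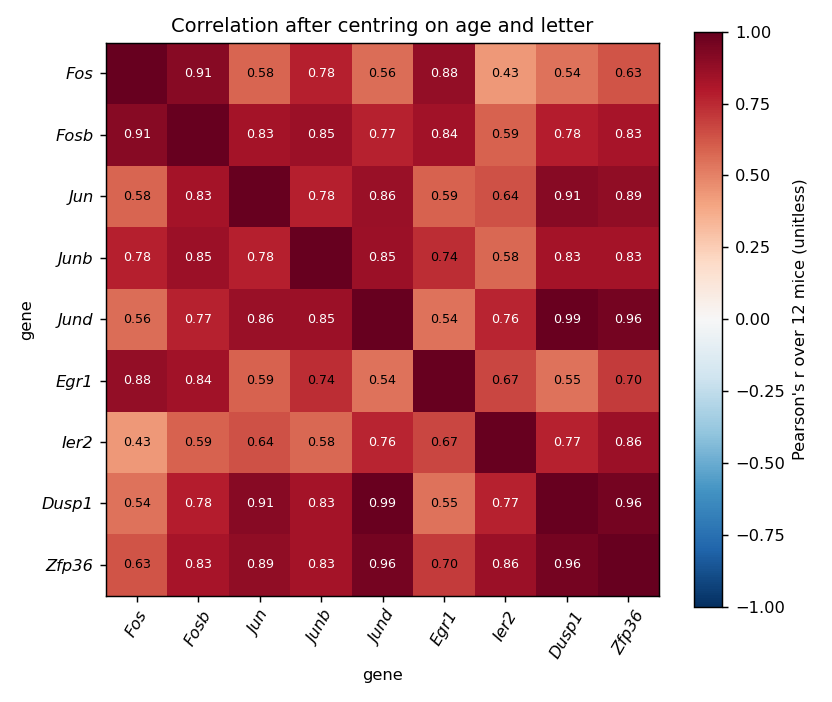
Pearson's r (colour scale from -1 to 1, unitless) between immediate early genes over 12 mice after centring on the 4 means of age and letter, genes on both axes. *Jund*, *Dusp1* and *Zfp36* form the tightest group, *Fos* has its highest values with *Fosb* and *Egr1*, and the lowest pair is *Fos* with *Ier2* at 0.43.

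Within the set some pairs were more alike than others, without a clear split into groups. *Jund*, *Dusp1* and *Zfp36* had r of 0.986, 0.958 and 0.960 among themselves, and *Jun* had 0.910 with *Dusp1*. *Fos* had 0.908 with *Fosb* and 0.875 with *Egr1* but 0.558 with *Jund* and 0.545 with *Dusp1*. Its r with *Fosb* and *Egr1* was thus higher than with each JUN gene, of which *Junb* came highest at 0.778. *Fosb* in turn had 0.854 with *Junb*, 0.831 with *Jun* and 0.842 with *Egr1*. Differences between these r were not tested. The ratio of *Fos* to *Fosb* ran only from 0.567 to 1.13 over the 12 mice. Taken against the mean of the other members, *Zfp36* was the most typical gene of the set with r of 0.953, and *Ier2* (0.738) and *Fos* (0.739) the least.

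Old mouse 6 weighed on these correlations. Without it the median r of the 36 pairs was 0.620, all still above 0, and without young mouse 4 it was 0.795. With both left out it was 0.575, and 32 of the 36 pairs were above 0, with a lowest r of -0.376.

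**Figure D5:**
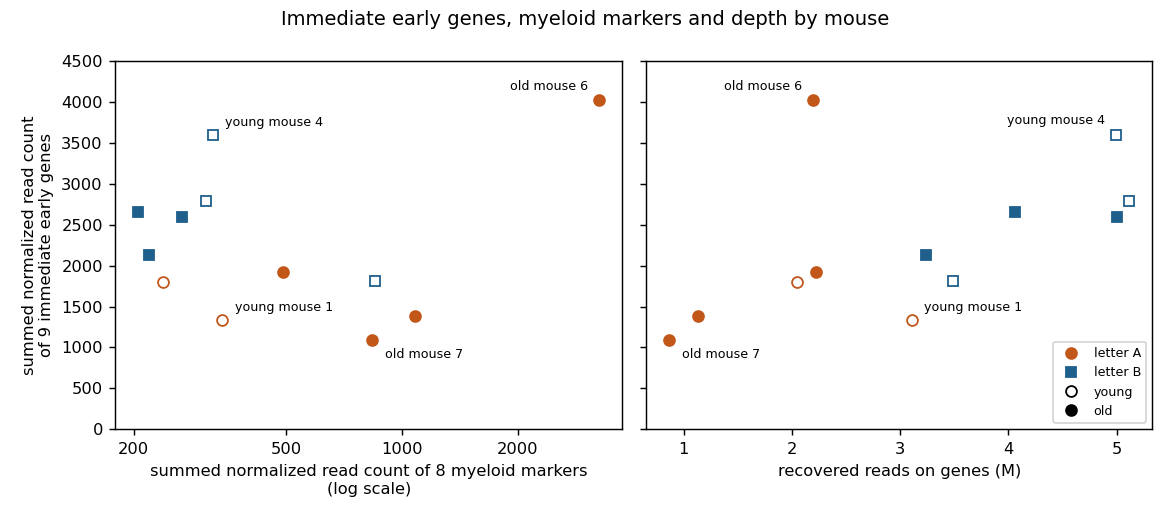
Summed normalized read count of 9 immediate early genes (y axis, from 0) against the summed normalized read count of 8 myeloid markers (left, log scale) and against recovered reads on genes in M (right), 1 point per mouse, open for young and filled for old, circles for letter A and squares for letter B. Old mouse 6 is highest on both axes of the left panel, with 4020 and 3254, while young mouse 4 reaches 3593 with a myeloid sum of 321.

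Old mouse 6 also stood apart in genes of other cells. The summed level of 8 myeloid markers, among them *Lyz2*, *Ngp* and *S100a9*, was 3254 normalized read counts in this mouse and 206 to 1081 in the other old mice, and 239 to 850 in the young. Its sum of 7 erythroid markers was 769 against 76.4 to 410 in the other mice, and its sum of progenitor markers 1046 against 103 to 432. Young mouse 4, the other mouse with high immediate early genes, had a myeloid sum of 321, an erythroid sum of 115 and a progenitor sum of 432. Old mouse 7 and old mouse 5, both low in immediate early genes, had myeloid sums of 838 and 1081. The part of these markers and of *Gm10800* in the high values of old mouse 6 and the low values of old mice 7 and 5 was not tested.

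Depth also went with the summed level in part. Old mice 7 and 5, with 0.861 and 1.13 M reads, had sums of 1088 and 1387 normalized read counts, and young mice 3 and 4, with 5.12 and 4.99 M, had 2791 and 3593. Old mouse 6, with 2.20 M reads, and young mouse 1, with 3.11 M and a sum of 1330, did not follow this order. The part of depth was not tested.

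Other genes of the response were examined as lists. Among 34 tested genes of a list of other rapid response genes, 0 had a limma adjusted p under 0.05 with age, against 0.105% of all genes. The smallest p was that of *Fosl2*, a further AP-1 gene, with means of 55.3 in young and 99.5 normalized read counts in old mice and a log2 fold change of 0.88 (unadjusted p = 0.00041, limma adjusted p = 0.174). Once the letter entered the model, *Fosl2* alone of the 34 was called, at 0.92 on the log2 scale (SE 0.20, limma adjusted p = 0.0337). Between letters, 10.5% of all genes tested were higher and 25.6% lower in letter B. Among genes with a mean of at least 50, 830 of 4799 were higher and 113 lower. Of the 34 listed genes, 4 were higher and 5 lower. Those lower included *Arc* (-1.86), *Egr2* (-2.07) and *Nr4a3* (-1.88), and those higher *Pim1* (1.17), *Cited2* (0.98) and *Myc* (0.87), so that *Egr2* and *Egr1* had log2 fold changes of opposite sign. Of the 34 genes, 17 (50%) had an r over 0.5 with the mean profile of the 9 immediate early genes. So had 6 of 10 stem cell markers (60%) and 12.4% of all genes tested outside the set, which were not matched for abundance. A high r with this profile was thus not particular to response genes.

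Over all genes tested, 0.105% were called with age, and 10.5% were higher and 25.6% lower in letter B. Of 12 feedback inhibitors of MAP kinase signalling 0 were called with age and 4 were higher and 1 lower in letter B. *Dusp4*, a phosphatase of the same family as *Dusp1*, had an r of 0.809 with the mean profile of the 9 genes, and *Spry4* one of -0.719. *Dusp2* had means of 77.9 in young and 41.6 normalized read counts in old mice, with a log2 fold change of -0.84 (unadjusted p = 0.00702, limma adjusted p = 0.743). Of 12 RNA decay genes 0 were called with age and 7 were higher in letter B, among them *Zfp36l2* with a log2 fold change of 1.49, a paralogue of *Zfp36* with r of 0.773 to the mean profile.

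Genes outside the set whose mouse-to-mouse profile was most like that of the immediate early genes, among those with a mean of at least 50, were *Bsdc1* (r = 0.939 over 12 mice), *Ddx58* (0.935), *Fryl* (0.934), *Dbnl* (0.926), *Dopey1* (0.926), *Sfswap* (0.919), *Selplg* (0.918), *Erp44* (0.904), *Fam168b* (0.901) and *Nfatc1* (0.901). None of these 10 belongs to the lists of response genes. The highest over the lowest normalized read count ran from 1.76 for *Fryl* to 3.32 for *Erp44* in these 10 genes, and from 2.66 to 7.13 in the 9 immediate early genes. Its median was 2.54 over genes with a mean of at least 90 and a read in every mouse.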

How the data were processed

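The normalized read counts are a signal that the authors deposited per gene and mouse. By the labels they used STAR 2.5.4b on mm10, FastQC 0.11.8 and edgeR 3.24.3, while the counting tool, annotation and strand setting are not given in the sources used here. A second deposited table holds the authors' own comparison (fold changes, p-values, FDR) and was not used here. No value column was left without a mouse. A count of 3 reads corresponds to 0.583 to 3.69 normalized read counts. Because whole reads were recovered, edgeR 4.0.16 and DESeq2 1.42.0 were run on them as alternatives.

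Members and lists were chosen with earlier results of these data known. Age, letter with age as covariate, and their interaction were fitted with limma 3.58.1 in R 4.3.3 (lmFit, eBayes with trend, pseudocount 1, minimum mean 10, Benjamini-Hochberg over all genes). Fold changes on this scale understate changes of low genes. The pairs of replicate numbers join different mice. Named genes were all members, called genes of the lists (at most 3 per direction between letters, or the 2 with the smallest p), and the 10 genes most like the members. Rapid response genes, feedback inhibitors, RNA decay genes, upstream kinases and factors, heat shock genes and cell markers were the lists. Gene positions and exon lengths came from GENCODE vM21, in which 18745 identifiers were found. Alternatives were pseudocount, minimum mean, trend, scaling, thinning, letter settings, a replicate block and leaving out each mouse. Each fit was tested on simulated data in which changed genes were known. There limma found 23.5% of age changes of 1 on the log2 scale and 69.6% of those of 2. Between letters the shares were 39% and 85%, and for the interaction 1.16% and 33.3%. The lack of a call, above all for the interaction, thus does not show that a change of this size is absent. Other steps used Python 3.11.15, numpy 2.4.6 and pandas 2.3.3.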

Additional observations from a re-analysis of the deposited data

Results flagged for a closer look

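In 34 groups, each of 1 gene or 1 summed list at 1 age, the highest or lowest mouse lay farther from the others than Dixon's 95% criterion allows in 6, where 1.7 would be expected by chance. Among them 3 concern immediate early genes. Old mouse 6 had 299 normalized read counts of *Fos*, where the other old mice ranged from 90.6 to 140, and 413 of *Fosb*, where they ranged from 97.2 to 198. Young mouse 4 had 622 of *Egr1*, where the other young mice ranged from 212 to 318. The other 3 concern summed markers. Myeloid markers were 3254 in old mouse 6, against 206 to 1081, and 850 in young mouse 5, against 239 to 341. Progenitor markers were 1046 in old mouse 6, against 103 to 312. Old mouse 6 thus stood apart in *Fos*, *Fosb* and both marker sums, while young mouse 5, apart in the myeloid sum, was low in *Fos* (53.5) and *Fosb* (85.8).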

How the results depend on the processing

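No immediate early gene was called with age under any of 25 alternatives, and none for the interaction under 19. Over all genes, 13 were called with age, against 2 without trend, 58 by DESeq2, 37 with the letter as covariate, 1 in letter A alone, 100 in letter B alone, 8 in replicates 1 to 5, and 3 to 32 when each mouse was left out. Replicates 1 to 5 and, for the correlations, the mice left out were chosen after seeing the data. A replicate block in the fit of replicates 1 to 5 called 19 genes and 0 members, and *Fos* had a log2 fold change of 0.30. Same-numbered mice correlated between -0.559 and 0.615, with a mean of 0.137, against -0.029 for pairs with different numbers. Of the 5 pairs, 1 correlated best with its own number. These correlations were centred on age alone, and numbers 2 and 5 join mice of different letters. They thus do not decide whether the numbers pair mice. The age sign turned for *Jun* (0.11) and *Dusp1* (0.043) in letter A alone and for *Fosb* (-0.28) and *Jund* (0.049) in letter B alone, and with mice left out *Egr1* ranged from -0.071 to 0.32 and *Jund* from -0.43 to 0.016. Between letters, 4462 genes became 943 at a minimum mean of 50, 447 in young mice alone, 2761 in old mice alone, and 2943 to 5003 with mice left out. The 3 members called (36.1% of all genes) became 1 without trend (31.1%), 5 with median ratios (41.7%), 1 in old mice alone (22.3%), and 2 to 7 with mice left out (23.8% to 40.5%). *Junb* lost its call without trend and in old mice alone. *Fos* between letters turned to 0.021 with median ratios and 0.45 in young mice alone, and ranged from -0.45 to 0.11 with mice left out. *Fosb* turned to -0.12 with edgeR, -0.026 without the covariate and -0.49 in old mice alone, and ranged from -0.33 to 0.28. Of 198 single values between letters, 165 kept direction and call, 12 lost the call and 7 gained it. The interaction called 2 genes, against 1 at a minimum mean of 50, 1 with no minimum, 0 without trend, 1 with thinned reads and 0 to 6 with mice left out. Its value turned for *Jund* with edgeR (-0.13), and with mice left out ranged from -0.15 to 0.62 for *Jund*, -0.42 to 0.30 for *Egr1*, -0.31 to 0.11 for *Ier2*, -0.76 to 0.010 for *Dusp1* and -0.32 to 0.27 for *Zfp36*. The median r of the member pairs was 0.620 and 0.795 with old mouse 6 or young mouse 4 left out and 0.575 with both. The cause of these shifts was not tested.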

Other observations

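Genes upstream of the response and heat shock genes gave further values. Beside them stand the shares of all genes tested, 0.105% called with age, and 10.5% higher and 25.6% lower in letter B. Of 23 tested upstream kinases and transcription factors 0 were called with age, and 4 were higher and 1 lower in letter B. *Mapkapk2*, a kinase of the p38 pathway, had a log2 fold change of 0.70 between letters, and *Crem*, a CREB relative, one of -0.80. Of 8 tested heat shock genes 0 were called with age and 4 were higher in letter B, *Hspa8* with a log2 fold change of 2.37 and *Hsp90aa1* with 2.04 (limma adjusted p = 3.0e-09 and 1.5e-07). Of these 8, 1 had an r over 0.5 with the mean profile of the immediate early genes after centring on age and letter. An r over 0.5 with that profile was found in 6 of 10 stem cell, 2 of 4 progenitor and 2 of 7 erythroid markers tested, in 0 of 4 B cell, 3 T cell and 6 myeloid markers, and in 12.4% of all genes outside the set.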
